A study of Mus musculus with 2 samples.

Results

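The genes described here are 9 regulators of the LIM homeodomain network: the DNA-binding factors Lhx6, Lhx8, Lhx2, Lhx9 and Isl1, the cofactors Ldb1 and Ldb2, and the LIM-only genes Lmo1 and Lmo4. They were chosen by name, taking every deposited line whose gene symbol is one of these, which gave 26 transcripts of 9 genes among 30723 gene symbols in all. The study measured RNA in the mouse mandibular prominence, the facial swelling that becomes the lower jaw and the floor of the mouth, with 1 library per group. The control library came from 10 pooled embryos labelled control, with no alleles named. The mutant library came from 10 pooled embryos of genotype Kif3a f/f ; Wnt1-Cre, which lack the ciliary motor subunit Kif3a where Wnt1-Cre is active. That is in neural crest cells and their descendants, but not in epithelium, mesodermal muscle precursors, the endothelium of vessels or blood. Both groups are on a mixed CD1 background and labelled E11.5, a stage of midgestation. The tables themselves are named e11.5 (control) and e11 (mutant) and carry separate sequencing run numbers, so stage, run and genotype cannot be told apart.

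LIM homeodomain proteins bind DNA through a homeodomain and bind cofactors through their LIM domains. LDB proteins dimerise and hold LIM homeodomain factors together in complexes, while LIM-only (LMO) proteins have LIM domains without a homeodomain and can occupy the same surface of LDB. In the first arch, Lhx6 and Lhx8 mark the oral side of the jaw mesenchyme, where FGF8 from the oral ectoderm is known to induce them, and Isl1 is known from the mandibular epithelium, motor and sensory neurons and some head muscle progenitors.

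Values are FPKM, fragments scaled to transcript length and library size, so levels can be compared between genes. With 1 library per group there is no replicate error and no test. Intervals in parentheses are 95% counting intervals on approximate fragment numbers, about 24700000 (control) and 24500000 (mutant), and cover counting error only. The log2 ratio is log2 of mutant over control FPKM after adding 1 to each, which understates differences of low genes. Counts of genes or transcripts use this log2 ratio, at 1 or more for higher and -1 or less for lower, so a low gene whose FPKM differ by over 2-fold can fall short of it. A mean of 1 FPKM over both libraries was the filter: 12259 genes passed, with a median log2 ratio of -0.13, and 8 of the 9 members passed, all but Lhx9. Kif3a, the deleted gene, stood at 11.46 FPKM against 5.39 in the mutant, 0.471 of the control level (0.431 to 0.514). The value covers whole transcripts and all cells of the prominence. All 9 markers of facial mesenchyme and all 10 of epithelium on the lists passed the filter in this tissue. In such pooled tissue, fewer cells of a type and less RNA per cell cannot be told apart.

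Before the levels, 4 start regions and 2 coding exon parts are shown. They tell apart several of the transcripts of Lhx6, Isl1 and Lmo4 that differed between the libraries. The 1867-base Isl1 form and the 1705-base and 1549-base Lmo4 forms, described below, also differed but are not told apart by them. The start regions are the 250 bases upstream of an RNA start, from RefSeq on GRCm38.p6, written 5′ to 3′ on the strand of the gene, with each CpG in capitals. All lie on the minus strand. The 2 starts of Lhx6 lie 1348 bases apart. The outer region, chr2:36105409-36105658, lies upstream of every annotated Lhx6 transcript, and the inner region, chr2:36104061-36104310, is intronic for transcripts from the outer start. Of Lmo4, the outer region is chr3:144205256-144205505, upstream of the gene, and the inner region chr3:144202397-144202646, intronic for the outer transcripts, with 2859 bases between the starts.
Lhx6 outer start: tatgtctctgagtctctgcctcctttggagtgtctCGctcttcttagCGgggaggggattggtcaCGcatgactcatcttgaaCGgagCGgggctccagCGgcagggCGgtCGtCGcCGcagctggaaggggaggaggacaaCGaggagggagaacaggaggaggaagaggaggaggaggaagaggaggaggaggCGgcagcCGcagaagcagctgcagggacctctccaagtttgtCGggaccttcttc
Lhx6 inner start: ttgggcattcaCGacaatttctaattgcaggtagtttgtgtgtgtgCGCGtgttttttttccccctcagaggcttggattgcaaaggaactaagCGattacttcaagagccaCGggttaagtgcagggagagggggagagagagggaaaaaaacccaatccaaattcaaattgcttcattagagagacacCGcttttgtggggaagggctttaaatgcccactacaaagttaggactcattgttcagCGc
Lmo4 outer start: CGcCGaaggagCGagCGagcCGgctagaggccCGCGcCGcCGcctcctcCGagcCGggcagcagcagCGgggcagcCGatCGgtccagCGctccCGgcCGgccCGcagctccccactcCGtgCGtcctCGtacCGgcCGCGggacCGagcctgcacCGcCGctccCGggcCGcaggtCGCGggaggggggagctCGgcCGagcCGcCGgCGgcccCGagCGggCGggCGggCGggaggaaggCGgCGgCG
Lmo4 inner start: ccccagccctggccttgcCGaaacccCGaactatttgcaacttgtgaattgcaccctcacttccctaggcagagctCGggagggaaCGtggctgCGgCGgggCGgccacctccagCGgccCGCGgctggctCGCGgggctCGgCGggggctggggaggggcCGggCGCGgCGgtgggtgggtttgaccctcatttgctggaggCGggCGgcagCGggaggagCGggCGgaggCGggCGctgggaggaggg
The exon parts were read from the GENCODE M21 transcripts (GRCm38), in lower case. The first is exon 8 of 9 in the Lhx6 model Lhx6-202, 104 bases at chr2:36087368-36087471, all coding. The second is the 69-base 5′ part of exon 5 of Isl1, at chr13:116301710-116301778, all coding, which the shorter form of that exon lacks.
Lhx6 exon of 104 bases: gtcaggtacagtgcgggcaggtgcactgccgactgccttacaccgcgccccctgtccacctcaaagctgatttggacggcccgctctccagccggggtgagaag
Isl1 exon part of 69 bases: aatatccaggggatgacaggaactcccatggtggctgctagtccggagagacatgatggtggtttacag
The Lhx6 start regions differ in composition, with 61.6% G and C and 14 CpG at the outer start against 46.0% and 7 at the inner. Both Lmo4 regions are CpG-rich, with 44 CpG at the outer start and 25 at the inner, where the median of 32851 such mouse windows is 6. The 16 windows of the 8 members in the RefSeq table (Ldb2 is not among them) were searched on both strands for the GLI-type letters GACCACCCA, the homeodomain letters TAATTA and the TATA letters TATAAA, which do not overlap one another. GACCACCCA was in 0 of the 16 and in 0.225% of all windows. TAATTA was in 2 of the 16, both of them overlapping windows of Lmo1, and in 4.84% of all windows. TATAAA was in 0 of the 16 and in 12.4% of all windows.

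The members differed in level over more than 2 orders of magnitude, and their order by level was the same in both libraries. Ldb1 and Lmo4 were the most abundant of the 9, followed by Lhx8, Lhx6, Ldb2, Isl1, Lmo1, Lhx2 and Lhx9. Neighbours in this order whose counting intervals overlap are Lhx6 and Ldb2 in the control (16.2 to 17.9 and 15.0 to 17.0 FPKM) and Ldb2 and Isl1 in the mutant (10.1 to 11.7 and 8.88 to 10.4 FPKM). Between the libraries, 0 of the 8 members that passed had a log2 ratio of 1 or more, against 0.767% of all genes, and 0 had one of -1 or less, against 1.36%. At a log2 ratio of 0.5 in either direction, a threshold chosen after the values were seen, 1 member was higher (Isl1, with 3.74% of all genes) and 1 lower (Ldb2, with 8.62% of all genes). Of the 8, 3 had a log2 ratio above 0, all of them LIM homeodomain genes, where 32.1% of all genes did, and the other 5 had one below 0, where 67.9% of all genes did.

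**Figure D1:**
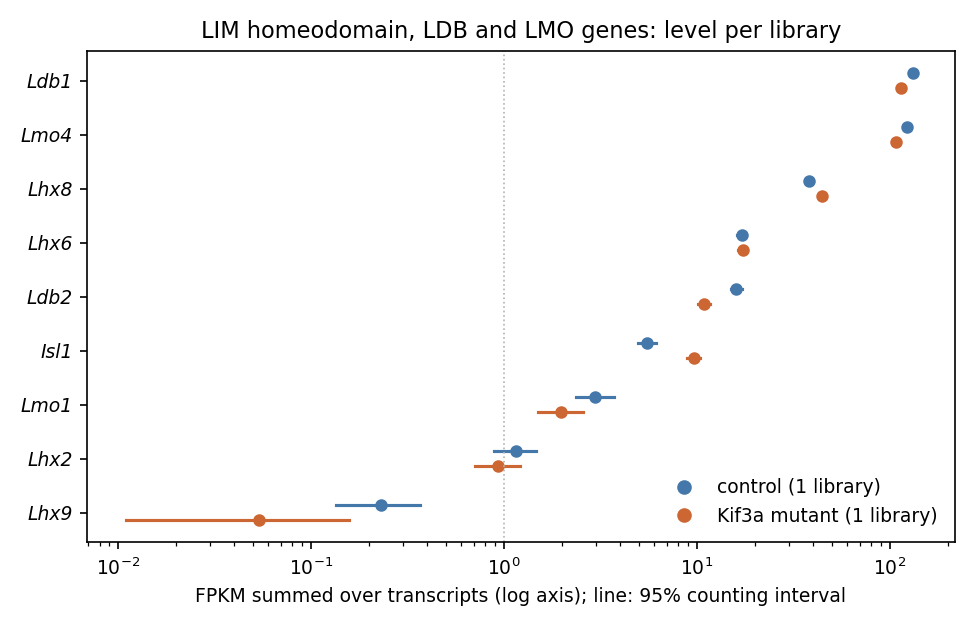
Level of each of the 9 genes in the control and the Kif3a mutant library, as FPKM summed over transcripts on a log axis, with 95% counting intervals as lines and the dotted line at 1 FPKM. Isl1 and Lhx8 lie further right in the mutant, Ldb1, Ldb2, Lmo4 and Lmo1 further left, and the 2 points of Lhx6 coincide.

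Lhx8, the factor required for palate and tooth development together with Lhx6, stood at 38.01 FPKM in control and 44.4 in mutant tissue. It lies at chr3:154306294-154330659 on the minus strand (GRCm38, GENCODE, as for the genes that follow) and has 1 deposited transcript, of 1977 bases. The mutant level was 1.17 of the control level (1.099 to 1.24), a log2 ratio of 0.22, higher than that of 86.9% of all genes. Its near relative Lhx6, at chr2:36081953-36105408 on the minus strand, stood at 17.0 FPKM in control and 17.2 in mutant tissue, a ratio of 1.01 (0.941 to 1.09), and its interval spans equality. Lhx8 therefore held 2.23 times the level of Lhx6 in the control and 2.58 times in the mutant. Together they made up 88.8% of the FPKM of the 5 LIM homeodomain members in control and 85.3% in mutant tissue.

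The near equality of Lhx6 as a gene covered opposite differences among its 4 transcripts. The 2 transcripts from the outer start stood together at 10.3 FPKM in control and 13.3 in mutant tissue, a ratio of 1.29 (1.18 to 1.40). The 2 from the inner start stood together at 6.70 and 3.95 FPKM, a ratio of 0.589 (0.514 to 0.675). The outer start thus held 60.6% of Lhx6 FPKM in control and 77.1% in mutant tissue. A difference of 10 percentage points or more in the share of the most used start occurred in 22.2% of 3165 genes with several starts and a mean of 5 FPKM or more, so a difference of this kind was common between these libraries. The 16.4 points of Lhx6 were more than those of 89.6% of these genes. Ldb1, at 1.83 points, and Lmo4, at 7.80, are the other members in that set. For Ldb1 the most used start held only 27.8% of its FPKM in control and 29.7% in mutant tissue. Its outermost start held 25.8% in control and 19.6% in mutant tissue.

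The exon of 104 bases split the Lhx6 transcripts in another way. Transcripts that contain it, of 3482 and 3292 bases, stood together at 10.3 FPKM in control and 8.06 in mutant tissue. Those without it, of 3378 and 3188 bases, stood together at 6.76 and 9.15 FPKM. The share with the exon was 60.3% in control and 46.8% in mutant tissue. By transcript, the outer-start form with the exon stood at 6.23 and 6.18 FPKM, and the outer-start form without it at 4.10 and 7.09. The inner-start form with the exon stood at 4.05 and 1.88 FPKM, and the inner-start form without it at 2.66 and 2.06. Of the 4, only the outer-start form without the exon was higher in the mutant, at a ratio of 1.73 (1.52 to 1.98). GENCODE gives the models with the exon 1089 coding bases, and those without it 1131 from the outer and 1044 from the inner start. The annotated small RNA gene Gm27953, at chr2:36087356-36087498 on the same strand, covers the exon, and Cufflinks assigns shared reads among these transcripts by estimate.

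Isl1, a LIM homeodomain factor of progenitors and neurons, stood at 5.53 FPKM in control and 9.62 in mutant tissue. The mutant level was 1.74 of the control level (1.52 to 1.99), a log2 ratio of 0.70, higher than that of 98.3% of all genes. It was the member with the largest difference over the filter. The gene lies at chr13:116298281-116309689 on the minus strand, and its 3 transcripts share a start. The full-length transcript of 2526 bases stood at 4.64 and 6.19 FPKM, a ratio of 1.33 (1.15 to 1.56). The transcript of 2457 bases, shorter by the 69-base exon part, stood at 0.742 and 1.75 FPKM, a ratio of 2.35 (1.65 to 3.41), on about 44 and 119 fragments. Its share of Isl1 FPKM was 13.4% in control and 18.2% in mutant tissue.

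The third Isl1 transcript, of 1867 bases, corresponds to a model that GENCODE classes as a retained intron. It stood at 0.148 FPKM in control and 1.68 in mutant tissue, a ratio of 11.3 (5.27 to 29.0) on about 7 and 87 fragments, and held 17.5% of Isl1 FPKM in the mutant. Without it, Isl1 stood at 5.38 and 7.94 FPKM, a ratio of 1.47 (1.28 to 1.70) and a log2 ratio of 0.49. Lmo4 also has a transcript of this class, of 1705 bases, at 0.796 and 2.67 FPKM, a ratio of 3.35 (2.27 to 5.08). Transcripts of this class shared that direction as a whole: over 478 of them that passed the filter the median log2 ratio was 0.46 and 16.1% had one of 1 or more, against a median of -0.14 and 1.65% over 9208 transcripts matched to protein-coding models. The Isl1 and Lmo4 log2 ratios, 1.22 and 1.03, lie on the side that most of that class took, above its median. The Isl1 transcript itself lay under the filter and is not among the 478. Whether either value is particular to its gene was not tested.

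Lhx2 and Lhx9, related factors of forebrain, eye, limb and gonad, were low. Lhx2, at chr2:38339281-38369733 on the plus strand, stood at 1.15 FPKM in control and 0.932 in mutant tissue, a ratio of 0.807 (0.557 to 1.17), on about 65 and 58 fragments. All but a trace of it came from the start at 38351308 on chromosome 2. Lhx9, at chr1:138825186-138848577 on the minus strand, stood at 0.230 FPKM in control and 0.0535 in mutant tissue, on about 17 and 3 fragments, a ratio of 0.232 (0.0436 to 0.803). It lay under the filter. With so few fragments, the values of its 4 transcripts have no use on their own.

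**Figure D2:**
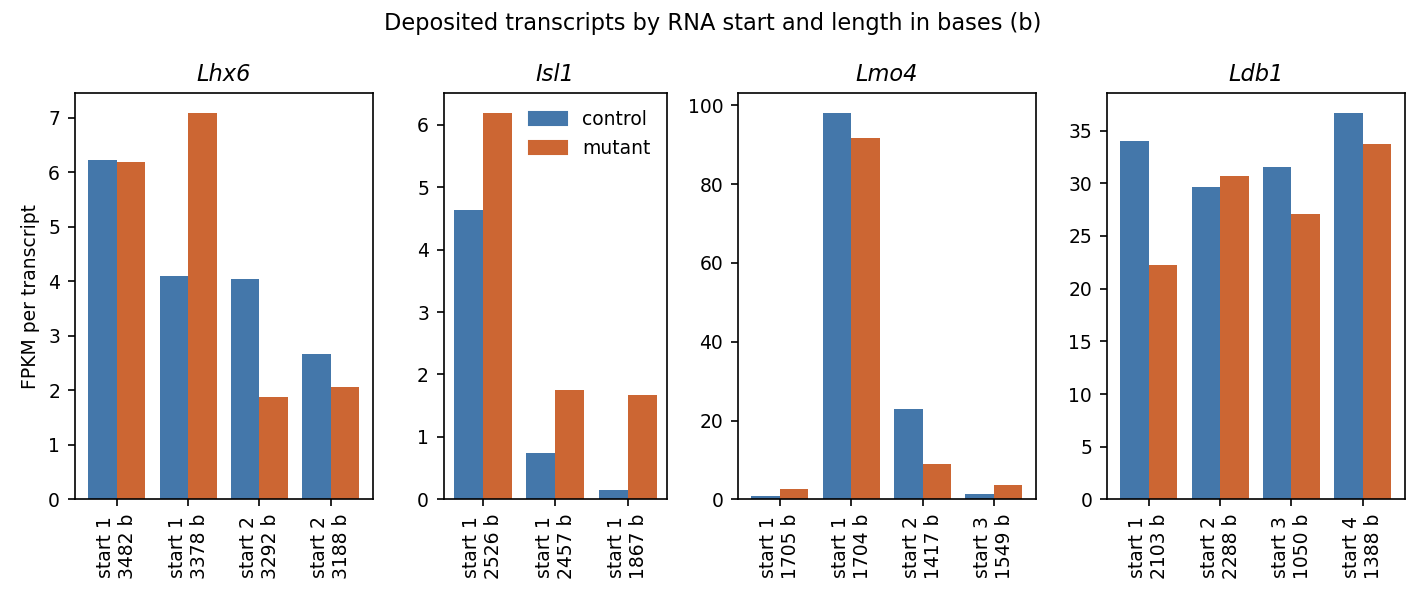
FPKM of each deposited transcript of Lhx6, Isl1, Lmo4 and Ldb1 in the control (blue) and Kif3a mutant (orange) library, with no replicates. Starts are numbered from the outermost and lengths are in bases. In Lhx6 the transcripts of start 1 hold a larger share in the mutant, and in Lmo4 the transcript of start 2 is lower in the mutant while the main transcript of start 1 is nearly level.

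Among the cofactors, Ldb1, the widely expressed LIM-binding protein, lies at chr19:46031570-46045214 on the minus strand. It stood at 132 FPKM in control and 114 in mutant tissue, a ratio of 0.863 (0.831 to 0.896). Its log2 ratio of -0.21 lay close to the median gene. Ldb2, the second LIM-binding gene, at chr5:44472132-44799680 on the minus strand, stood at 15.98 FPKM and 10.9, a ratio of 0.681 (0.615 to 0.753), a log2 ratio of -0.52, below which lay 7.92% of all genes. All 3 Ldb2 transcripts were lower in the mutant, at ratios of 0.604, 0.676 and 0.697. They share a start and their common reads are divided by estimate, so these ratios are not independent. The form of 2485 bases held 73.5% of Ldb2 FPKM in control and 75.2% in mutant tissue. Ldb1 exceeded Ldb2 8.26-fold in control and 10.5-fold in mutant tissue.

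The 4 Ldb1 transcripts each have their own start, and they did not differ alike. The form of 2103 bases, which starts at 46045211 on chromosome 19, stood at 34.0 FPKM in control and 22.3 in mutant tissue, a ratio of 0.653 (0.608 to 0.702). The form of 2288 bases, from the start at 46039621, stood at 29.6 and 30.7 FPKM, a ratio of 1.03 (0.969 to 1.11). The shorter forms of 1388 and 1050 bases had ratios of 0.920 (0.851 to 0.994) and 0.861 (0.780 to 0.9503). The lower level of Ldb1 in the mutant thus lay largely in the form with the outermost start. The 5′ end of that form overlaps the gene Pprc1 on the opposite strand, which stood at 18.2 and 20.7 FPKM, and whether the libraries keep strand is not stated in the sources used here.

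Of the LIM-only genes, Lmo4, a partner of LDB in epithelia and neural crest, lies at chr3:144188530-144205220 on the minus strand. It stood at 123 FPKM in control and 107 in mutant tissue, a ratio of 0.869 (0.835 to 0.904). Its log2 ratio of -0.20 lay close to the median gene. The main transcript, of 1704 bases from the outer start, stood at 98.1 and 91.6 FPKM and held 79.7% of the gene in control and 85.7% in mutant tissue. The transcript of 1417 bases from the inner start shown above stood at 22.9 and 8.98 FPKM, a ratio of 0.393 (0.345 to 0.446). Another start 64 bases further in gave 1.31 and 3.68 FPKM, a ratio of 2.82 (2.04 to 3.96). Of the 20 member transcripts over the filter, 2 had a log2 ratio of 1 or more, both of Lmo4 (1705 and 1549 bases), where 3.15% of all transcripts did. The 1417-base form was the 1 transcript with a log2 ratio of -1 or less, where 3.62% of all transcripts had one. The 1867-base Isl1 transcript, at a log2 ratio of 1.22, lay under the filter and is outside these counts. Of the forms described above, the 2457-base Isl1 transcript (0.66) and the 3292-base Lhx6 transcript (-0.81) fell short of these limits on the log2 scale, although their FPKM differed 2.35-fold upward and 2.15-fold downward.

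Lmo1, a LIM-only gene known from neural tissue, lies at chr7:109138572-109175207 on the minus strand and has 1 deposited transcript, of 1071 bases. It stood at 2.97 FPKM in control and 1.97 in mutant tissue, a ratio of 0.663 (0.463 to 0.944) on about 79 and 57 fragments. Below its log2 ratio of -0.42 lay 13.1% of all genes. Lmo4 exceeded it 41.4-fold in control and 54.3-fold in mutant tissue.

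Set against each other, the classes did not differ alike between the libraries. The 5 LIM homeodomain members summed to 62.0 FPKM in control and 72.2 in mutant tissue. The LDB genes summed to 148 and 125 FPKM, and the LMO members to 126 and 109. LIM homeodomain FPKM per LDB FPKM was thus 0.419 in control and 0.579 in mutant tissue, 1.38 times as much, while LMO per LDB was 0.852 and 0.873. With the length trend of the libraries removed, the former was 1.32 times as much, and with the most abundant transcript of each gene alone it was 1.33 times (both without Lhx9). In the last setting the quotient itself was 1.03 in control and 1.38 in mutant tissue, so its level depends on summing transcripts. These are ratios of RNA, not of protein, and Lhx8 and Isl1 contribute most of the numerator's difference. The 7 other LIM homeodomain genes, described below, summed to 10.1 FPKM in control and 5.85 in mutant tissue. With them included, LIM homeodomain FPKM per LDB FPKM was 0.487 and 0.626, 1.28 times as much.

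**Figure D3:**
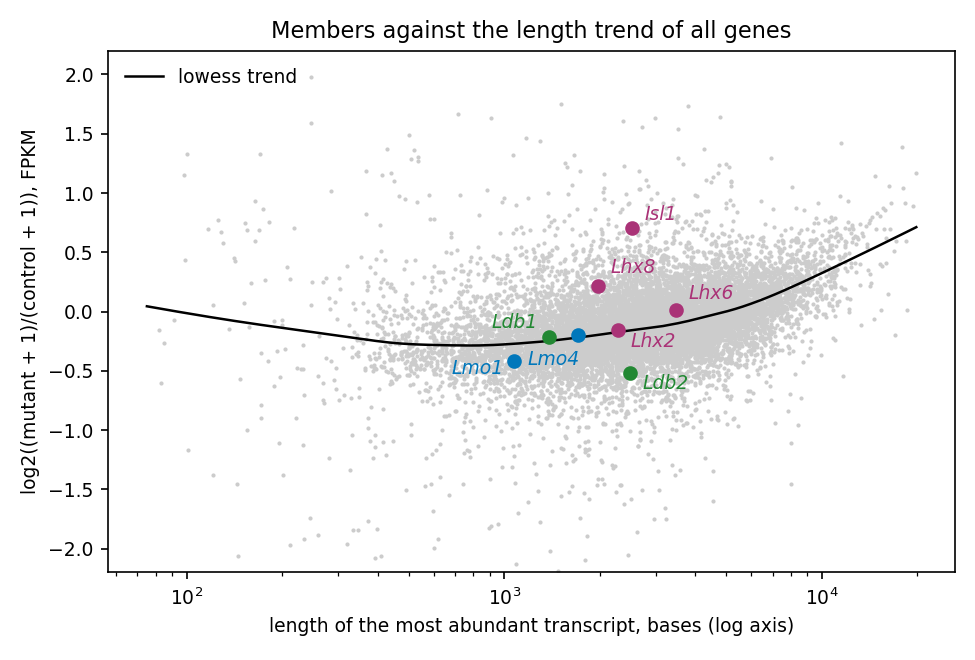
Log2 ratio of mutant to control FPKM (1 added to each) against the length of the most abundant transcript, on a log axis, for 12259 genes (grey, 46 of them outside the axis) with the lowess trend as a line and 8 members in colour. Isl1 and Lhx8 lie above the line and Ldb2 and Lmo1 below it, while Lhx2, Ldb1 and Lmo4 lie on it.

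Longer transcripts had higher ratios in this pair of libraries. With that trend removed, Isl1 had a log2 ratio of 0.86, Lhx8 of 0.42, Lhx6 of 0.12, Ldb2 of -0.36 and Lmo1 of -0.15. Ldb1, Lmo4 and Lhx2 came to 0.04, 0.02 and 0.02, so that their small differences did not stand apart from genes of their length. Across 12 alternatives, Isl1, Lhx8 and Lhx6 lay above the median gene in all 12 and Ldb2 below it in all 12, and Lmo1 below it in all 11 in which it passed the filter. Most of these alternatives leave the order of genes almost as it is, so staying on 1 side was largely built in. The filter and status settings left these members' own ratios as they were, and centring and scaling shifted all genes nearly together.

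**Figure D4:**
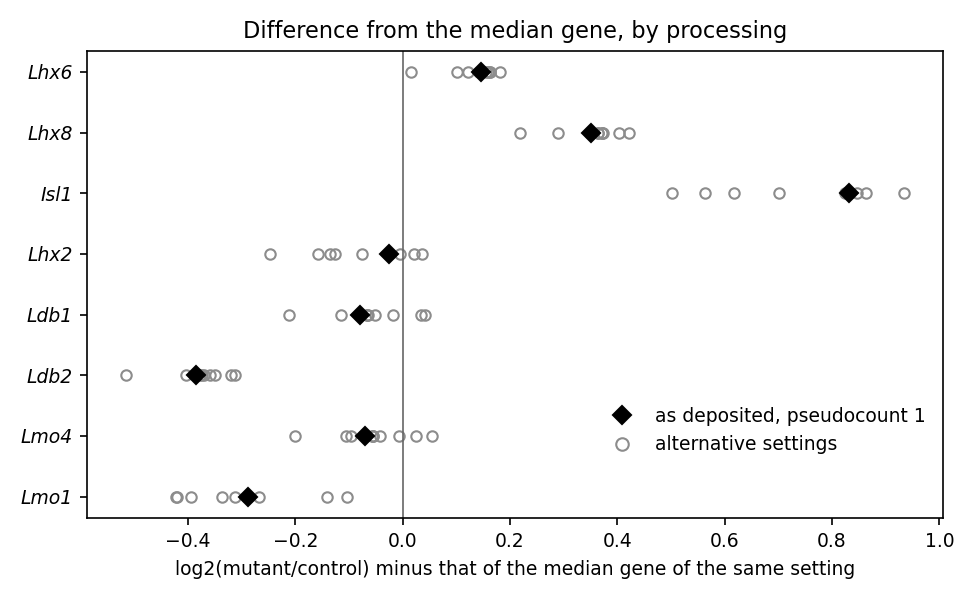
Log2 ratio of each of 8 members minus that of the median gene, as deposited (black diamonds) and under each alternative of the processing (open circles). The circles of Isl1, Lhx8 and Lhx6 all lie to the right of 0 and those of Ldb2 and Lmo1 to the left, while those of Lhx2, Ldb1 and Lmo4 fall on both sides.

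The other LIM homeodomain genes were lower in level than Lhx6 and Lhx8. Of 7, 3 passed the filter, and Lhx1, Lhx3, Lhx4 and Lhx5 were at or near 0 in both libraries. Isl2, the paralog of Isl1 and a gene of motor and sensory neurons, stood at 6.46 FPKM in control and 3.52 in mutant tissue, a ratio of 0.544 (0.449 to 0.658), while Isl1 was higher. Lmx1a stood at 2.13 and 0.481 FPKM, 4.43-fold lower in the mutant (3.17 to 6.31), and was the 1 gene of the list with a log2 ratio of -1 or less. Its paralog Lmx1b, a factor of dorsal limb and of midbrain neurons, stood at 1.48 and 1.83 FPKM, a ratio of 1.23 (0.812 to 1.88). Of the remaining LIM-only genes, Lmo2, a partner of TAL1 and GATA factors in blood and vessels, stood at 6.65 and 6.80 FPKM, and Lmo3 lay under the filter at 0.615 and 0.224.

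As a list, genes for proteins that bind LDB, or LMO4, lay close to the median gene, but Ssbp2 was lower. Of the 6 measured, 0 had a log2 ratio past 1 or -1, with a median log2 ratio of -0.18 beside -0.13 for all genes. Ssbp2, which with its relatives protects LDB from degradation, stood at 20.1 and 13.0 FPKM, a ratio of 0.645 (0.604 to 0.689), and was the lowest of them. Below its log2 ratio of -0.60 lay 5.34% of all genes. Ssbp3, the most abundant, stood at 125 and 108 FPKM, and Ssbp4 had a log2 ratio of -0.27. Rlim, the ubiquitin ligase that acts on LDB, had 0.11, Rbbp8 0.11 and Deaf1 -0.16. The SSBP genes kept their level per LDB FPKM, at 1.26 in control and 1.24 in mutant tissue.

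Of 9 bHLH and GATA genes whose products join LDB1 and LMO complexes, 8 passed the filter, of which 1 had a log2 ratio of -1 or less (Tal1) and 0 had one of 1 or more, with a median of -0.17. The lowest were genes of the blood lineage, while Gata2, also known from blood, was higher (0.20). Tal1 stood at 6.84 and 2.85 FPKM, 2.40-fold lower (2.10 to 2.74), Gata1, 2.53-fold lower (1.95 to 3.301), had a log2 ratio of -0.98, and Lyl1 one of -0.56. Gata3 was higher, with 0.53, and Tcf3, the most abundant, stood at 124 and 102 FPKM. Tcf4 (-0.03) and Tcf12 (-0.07) lay within that range. All 8 erythroid markers had a log2 ratio of -1 or less, with summed FPKM of 24018 and 6954, and the 8 endothelium markers summed to 73.4 and 46.9 FPKM. Lmo2 stood nearly level beside them. The part of blood and vessels in the values of Tal1, Gata1, Lyl1 and Ldb2 was not tested.

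Oral signals and mesenchyme factors known from studies of Lhx6 and Lhx8 differed in both directions. Of 12, 0 had a log2 ratio past 1 or -1, and 6 had a log2 ratio above 0, where 32.1% of all genes did. The median was -0.07, beside -0.13 for all genes. Fgf8, the ectodermal inducer, stood at 12.9 and 17.4 FPKM, a ratio of 1.35 (1.17 to 1.55). Pitx3, at 1.85 and 0.592 FPKM (3.12-fold lower, 1.89 to 5.33; log2 ratio -0.84), and Gsc (-0.62), a homeobox gene of the aboral jaw, were lowest, and Barx1, the most abundant, stood at 165 and 122 FPKM. Msx1, a homeobox gene of the jaw mesenchyme, had 0.36, while Bmp4 (0.00), Fgf9 (0.04), Bmp7 (0.09), Fgfr2 (-0.14), Fgfr1 (-0.29) and Pitx1 (-0.24) lay between.

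For contrast, 17 genes over the filter, of 18 listed, for LIM domain proteins of the cytoplasm and cytoskeleton had a median of -0.23, with 0 past a log2 ratio of 1 or -1. Pdlim3, at 4.01 and 1.55 FPKM (2.59-fold lower, 1.93 to 3.49; log2 ratio -0.97), and Csrp1 (-0.84), both known from muscle, were lowest, Lpp had 0.70 on a transcript of 15649 bases (0.12 with the length trend removed), and Csrp2, the most abundant, stood at 215 and 174 FPKM. The others were Fhl1, Fhl2, Fhl3, Limk1, Limk2, Pxn, Zyx, Lims1, Pdlim1, Pdlim5, Pdlim7, Ablim1 and Tgfb1i1.

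**Figure D5:**
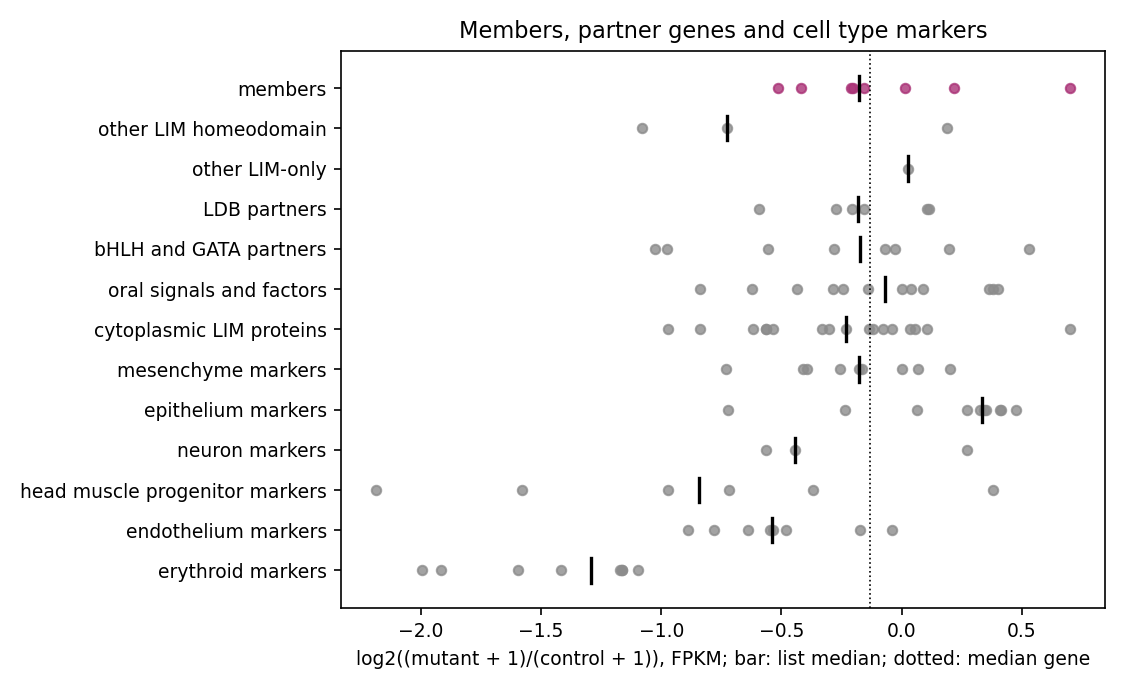
Log2 ratio of mutant to control FPKM (1 added to each) for every gene over the filter in each list, with the list median as a bar and the median gene as a dotted line at -0.13. The members spread from -0.52 to 0.70 around that line, the epithelium markers lie mostly above it, and the erythroid markers lie between -2.00 and -1.10.

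Markers of the cell types in which Isl1 is known did not differ in 1 direction. Over all genes, 32.1% had a log2 ratio above 0, and the median was -0.13. The 10 epithelium markers summed to 171 FPKM in control and 199.9 in mutant tissue, with 8 of 10 above 0 and a median of 0.33. The 13 neuron markers summed to 15.2 and 10.6 FPKM, and 3 of them passed the filter, with 1 of 3 above 0 and a median of -0.44. Among defining neuronal factors, Pou4f1, Phox2a and Chat were listed at 0 in the control and Mnx1 in the mutant. The 8 head muscle progenitor markers summed to 38.3 and 28.5 FPKM, with 1 of 6 above 0 and a median of -0.84 over 6. The summed mesenchyme markers stood at 720 and 636 FPKM, a median of -0.18. Most epithelium markers were thus higher, as was Isl1. The medians of neuron and head muscle progenitor markers were below that of all genes, the former on only 3 genes. The part of these cell types in the Isl1 value was not tested.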

How the data were processed

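RNA-seq was measured in 1 control and 1 Kif3a mutant library. Per the file headers, the authors deposited FPKM and a coverage signal for each transcript, with its length and status, from Cufflinks as the tables are named. Which aligner and versions were used is not given in the sources used here. A build of mm9 stands in the submitters' processing notes, but of 45348 transcripts with the same symbol and chromosome in GENCODE M21 (GRCm38), 52.0% had an identical start after adding 1 and 51.4% an identical end, so the deposited coordinates are given on GRCm38, 1-based.

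Lines with displaced columns (65 per table) were left out, and the FPKM of the other 59055 transcripts was summed per symbol. The status was not OK for 404 control and 6 mutant transcripts, 0 of them of members. Fragments were approximated as deposited coverage times length over the yield of 1 fragment, 156 (control) and 153 (mutant) bases, the median of values of 80 to 220 bases among genes with 1 transcript of over 1500 bases. Ratios carry exact Clopper-Pearson intervals on these fragments, and levels exact Poisson intervals. The length trend was a lowess fit (fraction 0.3, statsmodels 0.14.6). Transcripts were matched to GENCODE models of the same symbol with both ends within 100 bases and the length within 5%. The ratio, interval and trend were tested on simulated data. Python 3.11.15 with scipy 1.17.1 was used. No test between groups exists with 1 library each.

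The members and lists were chosen with earlier results of these data known. Named genes were all members, Kif3a, and from each partner list the genes over the filter, with values for those with the largest log2 ratios and the most abundant. Marker lists are given as counts, medians and sums. A few listed genes are not reported here. No genes were ranked by likeness of pattern, since 2 libraries give 1 ratio per gene. The alternatives covered pseudocount, filter, scaling, length, transcript choice and status. Leaving out the members' retained-intron transcripts, the start-use comparison and the threshold of 0.5 were added after seeing the data.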

Additional observations from a re-analysis of the deposited data

How the results depend on the processing

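No paired analysis was possible because the groups hold 1 library each, and for the same reason no library could be left out. The depth limits Lhx9, Lhx2 and Lmo1, and the transcript values are estimates of shared reads. Isl1, Lhx8 and Lhx6 lay above the median gene, and Ldb2 and Lmo1 below it, under every alternative in which they passed the filter. Filter, status, centring and scaling could hardly alter this, since they leave the order of genes almost as it is. Isl1 ranged from 0.35 with the most abundant transcript alone to 1.22 with TPM-like scaling. There it was the 1 member with a log2 ratio of 1 or more. The signs of Ldb1, Lmo4 and Ldb2 depended on scaling. With TPM-like scaling, which moved the median gene to 0.39, Ldb1 had 0.37, Lmo4 0.38 and Ldb2 0.031; over transcripts of 200 bases or more, Ldb1 had 0.053 and Lmo4 0.063 with the median gene at 0.11; with the length trend removed they had 0.036 and 0.019.

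The median log2 ratio of the members, -0.18 as reported, was -0.048 after centring on the median gene, 0.38 with TPM-like scaling, 0.058 with that scaling over transcripts of 200 bases or more, and 0.027 with the length trend removed. The count of members below the median gene, 5 as reported, was 3 with a mean FPKM of 5 or more (6 members left), 2 with the length trend removed and 3 with the most abundant transcript alone. Over all genes, 94 had a log2 ratio of 1 or more and 167 one of -1 or less as reported. The counts were 179 and 312 with a pseudocount of 0.1, 36 and 56 with a pseudocount of 5, 54 and 88 at a minimum mean FPKM of 5, 460 and 70 with TPM-like scaling, and 158 and 110 with that scaling over transcripts of 200 bases or more. With the length trend removed 110 were lower. Of the members' log2 ratios under the alternatives, 62 stayed within the counting interval of the reported value, 25 left it with the same sign or where that interval spans 0, and 7 changed sign, those named above; beyond such construction, the cause was not tested.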
